A study of Mus musculus with 6 samples.

Results

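The troponins and tropomyosins are the calcium switch of the striated muscle thin filament, and this account covers the 10 genes Tnnt1, Tnnt2, Tnnt3, Tnni1, Tnni2, Tnni3, Tnnc1, Tnnc2, Tpm1 and Tpm2. They were chosen by name, and every probe set whose platform annotation names 1 of them and no other gene was used, which gave 20 probe sets of 45037. Expression was measured on 6 Affymetrix mouse expression arrays of C57BL/6 embryonic heart at E12.5. By their labels 3 arrays are wildtype and 3 are Rhau KO. Rhau, now called Dhx36, is a helicase that opens G-quadruplexes in RNA and DNA. The sources used here do not give the promoter or Cre line behind the deletion, the deleted part of the gene or the litters of the controls. The genes were put together with the difference between these labels in view, so their differences below are a description without a test of their own.

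Troponin is a complex of T, I and C subunits that sits on tropomyosin along the actin filament. Troponin C binds calcium, troponin I holds the filament off at low calcium, and troponin T anchors the complex to tropomyosin. Troponin T and troponin I each have separate genes for cardiac, slow skeletal and fast skeletal muscle. The embryonic heart is known to use slow skeletal troponin I before the cardiac form takes over after birth. Slow skeletal and cardiac muscle share troponin C from Tnnc1, whereas fast skeletal muscle uses Tnnc2. Tpm1 and Tpm2 encode the alpha and beta tropomyosins, whose transcripts are alternatively spliced in striated, smooth and nonmuscle cells. The troponin T and troponin I genes lie in linked pairs, Tnni2 with Tnnt3, Tnnt1 with Tnni3 and Tnni1 with Tnnt2.

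The 250 bases before the start site are shown for Tnnt1, which was brighter on the Rhau KO arrays, for its direct neighbour Tnni3, whose signal was lower, and for Tnnc1, the cardiac troponin C gene with a G-quadruplex motif. They come from RefSeq, build GRCm38.p6, and read 5′ to 3′ on the gene's strand: chr7:4515976-4516225, minus strand, for Tnnt1; chr7:4522529-4522778, minus strand, for Tnni3; and chr14:31208062-31208311, plus strand, for Tnnc1. Capitals mark matches to the motifs listed after them.
Tnnt1: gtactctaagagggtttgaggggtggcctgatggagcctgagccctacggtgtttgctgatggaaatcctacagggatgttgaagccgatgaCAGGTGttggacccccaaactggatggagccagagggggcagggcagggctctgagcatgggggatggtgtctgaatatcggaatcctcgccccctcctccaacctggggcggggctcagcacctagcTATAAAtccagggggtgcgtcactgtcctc
Tnni3: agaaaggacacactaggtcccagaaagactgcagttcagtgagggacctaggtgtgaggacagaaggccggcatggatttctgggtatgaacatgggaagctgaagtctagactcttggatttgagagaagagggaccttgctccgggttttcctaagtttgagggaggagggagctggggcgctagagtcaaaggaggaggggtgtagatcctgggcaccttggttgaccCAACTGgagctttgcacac
Tnnc1: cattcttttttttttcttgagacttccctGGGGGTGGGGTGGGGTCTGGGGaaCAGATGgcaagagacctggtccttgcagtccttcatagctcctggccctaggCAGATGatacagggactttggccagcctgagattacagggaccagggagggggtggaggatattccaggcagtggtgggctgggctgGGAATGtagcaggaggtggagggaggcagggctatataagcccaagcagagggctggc
Both strands were searched for the E-box CANNTG, the MCAT element CATTCC, the GATA site GATAA, the NKX2-5 half-site AAGTG, the TATA box TATAAA, the CArG box, the MEF2 site, and a G-quadruplex motif of 4 runs of at least 3 G with 1 to 7 bases between them. RefSeq gave a promoter for 8 of the 10 genes, with 10 start sites in all, and Tnnt3 and Tnni2 had no entry. An E-box lay in 10 of these 10 windows, against 66.2% of all 32851 windows of the same length. The MCAT element was in 3 of 10 (12.6% of all), in Tnnt2, Tpm1 and Tnnc1. The G-quadruplex motif was in 3 of 10 (16.7% of all), which are Tnnc1 and the overlapping windows of both Tnni1 start sites. The TATA box string TATAAA was in Tnnt1 alone (12.4% of all), the GATA site in Tnnt2 alone (22.6%) and the NKX2-5 half-site in Tnni1 alone (40.7%). Variant forms of these sites were not searched, such as the tatataag near the end of the Tnnc1 window. No window held a CArG box (1.47% of all) or a MEF2 site (0.508%). E-boxes and G-quadruplex motifs may overlap other motifs in the same window, and a match is a match of letters only.

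The labels and the arrays need a caution before the values. Dhx36, the gene named as deleted, was higher on each of its 3 probe sets in the arrays labelled Rhau KO, at 10.27 ± 0.19 against 8.86 ± 0.14 on the brightest (log2 signal, mean ± SD, n = 3 each). Directions below follow the labels. Exchanged labels would turn every direction given here, and whether the Dhx36 probe sets lie in the deleted part was not tested. Arrays also differed in sex-linked RNA. The mean linear signal of 3 Y-linked genes (Eif2s3y, Kdm5d, Uty), with the highest array set to 100, ran from 1.23 to 39.3 in wildtype arrays and from 59.6 to 100 in Rhau KO arrays. Wildtype replicate 3 and Rhau KO replicates 1 and 2 held Xist and Y-linked RNA together, each above 10% of the highest array, and are called the mixed-signal arrays here. Xist is known from female cells and the Y-linked genes from male ones, so these 3 arrays stand against a reading of the series design in which each array is 1 heart, and whether hearts were pooled or RNA mixed was not tested. Values are given also within these 3 arrays, where 1 wildtype array stands against 2 Rhau KO arrays. That wildtype array has no spread of its own, so differences there are given as values. In the fit with Y-linked signal as a covariate, the covariate runs with the label, since every Rhau KO array exceeds every wildtype array in it. Label and covariate are thus only partly separable, which widens the SE of the label difference. That fit also has fewer degrees of freedom, so a call can be lost at an equal difference.

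Troponin T showed the widest differences of the family. Tnnt3, the fast skeletal troponin T, had log2 signals of 10.87, 11.08 and 10.98 in wildtype replicates 1 to 3 and of 7.66, 6.86 and 6.75 in Rhau KO replicates 1 to 3. The groups did not overlap, and replicate 1 labelled Rhau KO stood above the other arrays of its label. The difference was -3.89 (SE 0.20), a 14.8-fold lower signal. Among all 27022 probe sets above the filter on dim signals, a mean log2 signal of 5.90, only 1 probe set, for Xist, had a more negative difference. Tnnt3 has a single probe set on this array, so no second probe set checks its value. In whole hearts, fewer cells of a type and less RNA per cell cannot be told apart.

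Tnnt1, the slow skeletal troponin T, ran the other way. Its signals were 11.12, 11.38 and 11.37 in the wildtype arrays and 12.69, 12.65 and 13.02 in the Rhau KO arrays. Every Rhau KO array exceeded every wildtype array, by a mean of 1.50 (SE 0.10) or 2.83-fold. It is the only member with a higher signal beyond the threshold described below, and it too has 1 probe set.

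Tnnt2, the cardiac troponin T, is measured by 3 probe sets. The brightest was at 15.17, 15.16 and 15.10 in wildtype arrays and at 15.01, 14.93 and 15.10 in Rhau KO arrays, with overlapping groups and a difference of -0.13 (SE 0.05). The next was lower by 0.17 with groups that did not overlap, and the dimmest, at 8.19 ± 0.14 and 8.31 ± 0.13, differed by 0.12. Those bright probe sets, with Tnni1, Tnnc1 and the brightest of Tpm1, lie within the top 0.5% of all mean signals, above 14.20, where saturation was not tested, so a small difference there does not show that the transcript changed little.

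**Figure D1:**
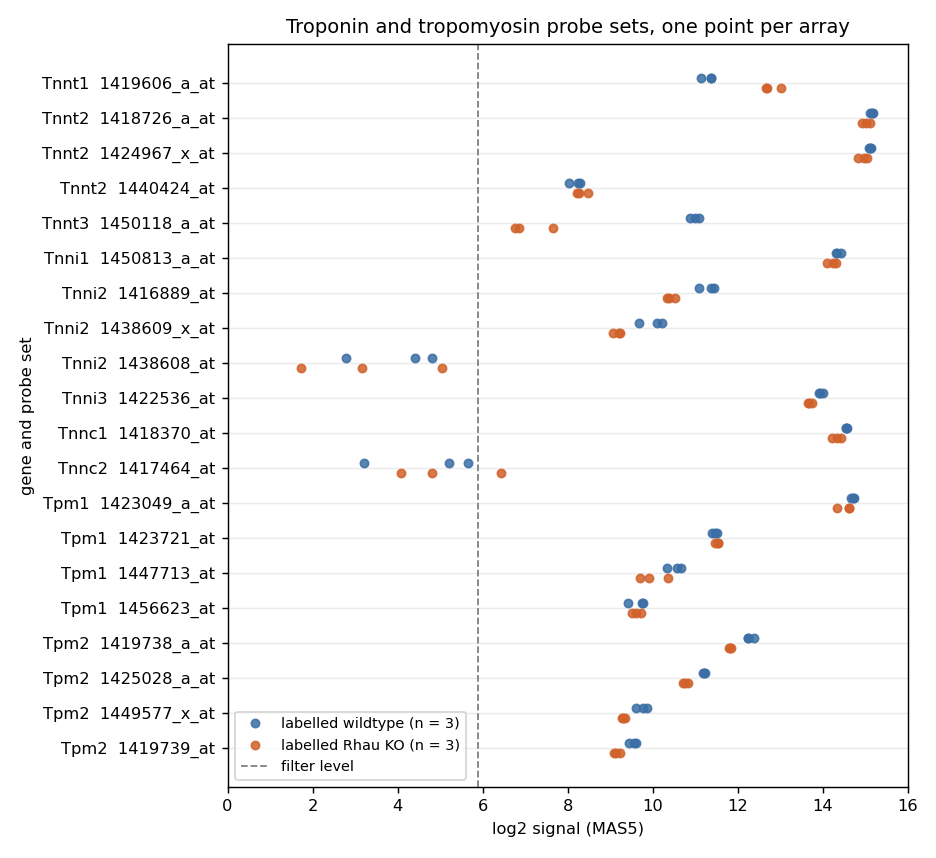
Log2 MAS5 signal (horizontal axis) of each of the 20 troponin and tropomyosin probe sets, 1 point per array, blue for the 3 arrays labelled wildtype and orange for the 3 labelled Rhau KO; the dashed line is the filter level of 5.90. Tnnt3 goes from a mean of 10.98 to 7.09, Tnnt1 moves from 11.29 to 12.79, and the 2 probe sets below the line are those of Tnnc2 and the dimmest of Tnni2.

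The 3 troponin I genes were lower by different amounts. Tnni2, the fast skeletal troponin I and the linked partner of Tnnt3, was at 11.09, 11.45 and 11.37 in wildtype replicates 1 to 3 and at 10.51, 10.38 and 10.34 in Rhau KO replicates 1 to 3. The groups did not overlap, and the difference was -0.89 (SE 0.09), a 1.85-fold lower signal. A second Tnni2 probe set gave -0.83 (SE 0.13), from 9.99 ± 0.29 to 9.16 ± 0.09, again with no overlap. The third had means of 3.99 and 3.31, below the filter, and was not fitted.

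Tnni3, the cardiac troponin I, was at 14.00, 13.90 and 13.94 in wildtype arrays and at 13.68, 13.64 and 13.74 in Rhau KO arrays. These groups did not overlap although the difference was only -0.26 (SE 0.05). Tnni1, the slow skeletal troponin I of the embryonic heart, was at 14.43, 14.34 and 14.31 against 14.24, 14.10 and 14.31, a difference of -0.15 (SE 0.06). The lowest wildtype array and the highest Rhau KO array both rounded to 14.31. The linked partners Tnnt1 and Tnni3 thus had differences of opposite sign, 1.50 and -0.26.

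Troponin C had 1 gene above the filter. Tnnc1, the calcium-binding subunit of cardiac and slow muscle, was at 14.54, 14.56 and 14.54 in wildtype arrays and at 14.33, 14.20 and 14.41 in Rhau KO arrays, a difference of -0.23 (SE 0.06) without overlap. Tnnc2, the fast skeletal troponin C, was at 5.22, 3.20 and 5.66 against 6.43, 4.80 and 4.07. Its groups overlapped, its mean lay below the filter, and it is the 1 gene of the 10 with no fitted value.

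Tpm2, the beta tropomyosin, was lower on each of its 4 probe sets. The brightest gave 12.37, 12.24 and 12.24 in wildtype arrays and 11.84, 11.79 and 11.82 in Rhau KO arrays, a difference of -0.46 (SE 0.05). The others differed by -0.43 (SE 0.06), -0.43 (SE 0.09) and -0.38 (SE 0.08). None of the 4 overlapped between labels, and their folds lay between 1.31 and 1.38.

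The 4 probe sets of Tpm1, the alpha tropomyosin and the main tropomyosin of the heart, did not move together. The brightest was at 14.72, 14.71 and 14.65 against 14.60, 14.32 and 14.61, a difference of -0.18 (SE 0.07). A second, at 11.46 ± 0.07 and 11.50 ± 0.05, differed by 0.05, and the dimmest, at 9.64 ± 0.20 and 9.61 ± 0.11, by -0.03. The remaining one was at 10.56, 10.66 and 10.33 in wildtype arrays and at 9.92, 10.35 and 9.69 in Rhau KO arrays, a difference of -0.53 (SE 0.14) with overlapping groups. Its call was lost without replicate 1 or 2 labelled wildtype or replicate 1 or 3 labelled Rhau KO. It stood at -0.20 in the mixed-signal arrays and at -0.14 with the Y-linked covariate. The sources used here do not say which Tpm1 transcripts each probe set reads.

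**Figure D2:**
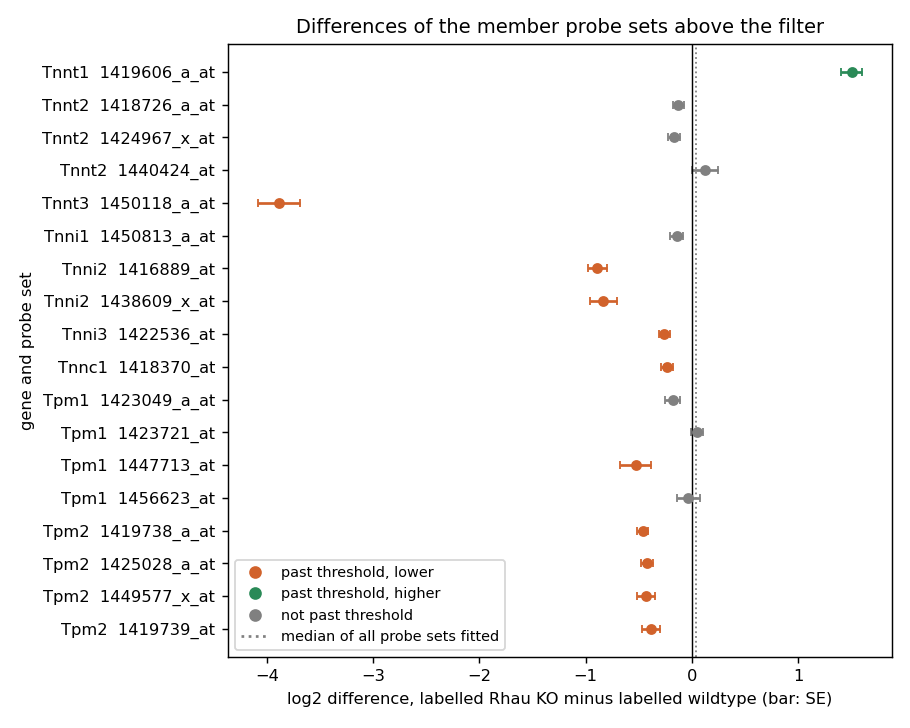
Difference in log2 signal, labelled Rhau KO minus labelled wildtype (horizontal axis), with its SE as a bar, for the 18 member probe sets above the filter. Orange points passed the threshold as lower, the green point (Tnnt1) as higher and grey points did not pass; the dotted line is the median of all probe sets fitted, 0.04. Tnnt3 at -3.89 and Tnnt1 at 1.50 lie far from the rest, which fall between -0.89 and 0.12.

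Of the 20 probe sets 18 lay above the filter, and they cover 9 of the 10 genes. At an adjusted p of 0.05 in limma's fit over all 27022 probe sets, 10 were lower, 1 was higher and 7 did not pass. The lower calls came from 6 genes, Tnnt3, Tnni2, Tnni3, Tnnc1, Tpm1 and Tpm2. Over all probe sets 6.88% were called lower and 6.75% higher, 13.6% in all, and with each array centred on its median the calls split into 71.5% lower, against 50.5% here. Groups did not overlap for 12 member probe sets that were lower (14.5% of all probe sets) and for 1 that was higher (19.4% of all), 33.9% in either direction. The median difference was -0.25 over the 18 probe sets and 0.04 over all. Nothing is read from these counts, since the genes were chosen with this contrast in view.

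Tnnt3 and Tnnt1 stayed past the threshold without any 1 array and with the Y-linked covariate (-3.18 and 1.15), and stood at -3.72 and 1.31 within the mixed-signal arrays. The lower count fell from 6 genes to 4 without replicate 1 or without replicate 2 labelled wildtype, and to 1, Tnnt3, with the covariate. The differences themselves were of similar size with the covariate for Tnni2 (-0.87 and -1.05), Tnni3 (-0.29), Tnnc1 (-0.27) and the 4 Tpm2 probe sets (-0.30 to -0.49), but smaller for the Tpm1 probe set that was called (-0.14). The call for Tnnc1 was lost without any 1 of the wildtype arrays. That for the dimmest Tpm2 probe set was lost without replicate 1 labelled wildtype. Both bright Tnnt2 probe sets passed without replicate 3 labelled Rhau KO, at -0.18 and -0.22.

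Isoform shares were taken from the linear signal of the brightest probe set of each gene. Probe sets bind with different strength, so these are shares of signal, not of molecules. The size of a change in share between arrays also depends on that strength and on which probe sets are used. Tnnt3 made up 4.56%, 5.22% and 5.09% of summed troponin T signal in wildtype replicates 1 to 3 and 0.506%, 0.308% and 0.246% in Rhau KO replicates 1 to 3. The mean share was 4.95% ± 0.35 against 0.353% ± 0.135 (SD, n = 3 each), with no overlap. Tnnt1 made up 5.43%, 6.40% and 6.65% against 16.6%, 17.1% and 19.1%. Tnnt2 made up the remainder, 88.9% ± 1.0 against 82.1% ± 1.2.

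The sum over the 3 troponin T genes differed by less than the spread among the Rhau KO arrays, at 40746 ± 944 linear signal units in wildtype arrays and 40386 ± 3007 in Rhau KO arrays. Tnnt2 gave 88.9% and 82.1% of that sum, at a brightness where saturation was not tested. The sum therefore does not show that total troponin T stayed the same. Of the skeletal troponin T signal alone, Tnnt3 gave 44.6% ± 1.2 in wildtype arrays and 2.00% ± 0.86 in Rhau KO arrays, and Tnnt1 gave the rest. Over all probe sets of each gene, the mean share of Tnnt3 was 2.64% and 0.198%, because the second bright Tnnt2 probe set enters the sum.

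For troponin I the shares of signal from the brightest probe sets shifted less. Tnni2 made up 5.35%, 7.19% and 6.85% of the summed signal in wildtype replicates 1 to 3 and 4.29%, 4.22% and 3.68% in Rhau KO replicates 1 to 3, without overlap. Slow skeletal Tnni1 made up 53.4% ± 0.9 against 56.7% ± 1.1, and cardiac Tnni3 40.1% ± 0.6 against 39.3% ± 0.9, with overlapping groups for Tnni3 only. The summed troponin I signal was 39411 ± 1110 in wildtype arrays and 33624 ± 1856 in Rhau KO arrays. The Tpm2 share of tropomyosin signal was 15.8% ± 0.5 against 13.4% ± 1.2, and the groups did not overlap.

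**Figure D3:**
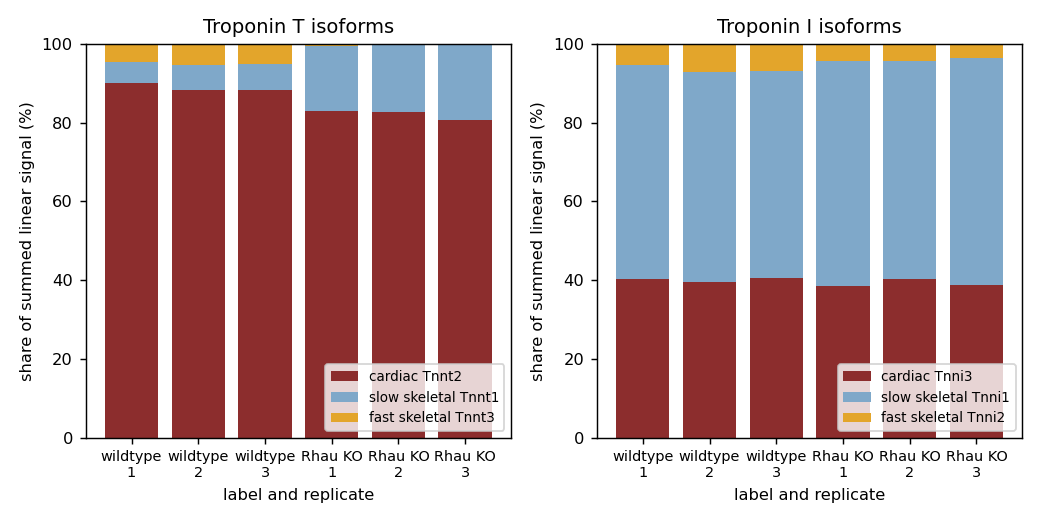
Share of the summed linear signal (vertical axis, percent) of the cardiac, slow skeletal and fast skeletal genes of troponin T (left) and troponin I (right), 1 bar per array labelled by group and replicate. The fast share of troponin T is visible in the 3 wildtype bars, at 4.56% to 5.22%, and nearly gone in the 3 Rhau KO bars, at 0.246% to 0.506%, while the slow share goes from at most 6.65% to at least 16.6%.

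The linked pairs were set against their neighbours, the 3 nearest genes with a probe set on each side in RefSeq order. Around Tnni2 and Tnnt3, the lysosomal protease gene Ctsd (-0.43, SE 0.05, adjusted p = 4.23e-04), Ifitm10 (-1.18, SE 0.25, adjusted p = 0.0126) and the antisense transcript Igf2os (-0.36, SE 0.09, adjusted p = 0.0222) were lower in limma's fit over all probe sets, 3 of 6 neighbours. Syt8 (-1.10, SE 0.54), Mrpl23 (0.08) and the growth factor gene Igf2 (-0.09) did not pass. Lsp1, a leukocyte actin-binding protein gene, lies between Tnni2 and Tnnt3 and is named outside the rule after its value was seen. It was at 10.24, 10.15 and 10.12 in wildtype arrays and at 9.30, 9.50 and 9.37 in Rhau KO arrays (-0.78, SE 0.08, limma adjusted p = 1.80e-04). Of all genes by their brightest probe set, 9.75% were called lower and 6.77% higher. The calls for Ctsd and Lsp1 held in each fit without 1 array, that for Ifitm10 was lost without replicate 1 labelled wildtype, and that for Igf2os without any 1 of replicate 2 or 3 labelled wildtype or replicate 2 labelled Rhau KO. With the Y-linked covariate none of these 4 calls remained, at differences of -0.39 for Ctsd, -1.46 for Ifitm10, -0.49 for Igf2os and -0.78 for Lsp1.

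Around Tnnt1 and Tnni3, none of 4 fitted neighbours passed, with Ppp1r12c at -0.23, Rdh13 at 0.05, Tmem86b at -0.06 and Ppp6r1 at -0.06. Eps8l1 and Syt5 lay below the filter. Around Tnni1 and Tnnt2, Phlda3 was lower (-0.29, SE 0.07, limma adjusted p = 0.0228), a call lost without any 1 of the arrays other than replicate 3 labelled Rhau KO, while Csrp1 and Tmem9 were at 0.02 and -0.07. Gm4793, Pkp1 and the calcium channel gene Cacna1s lay below the filter. Lad1, between the pair, was at 0.54 (SE 0.17) without a call.

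**Figure D4:**
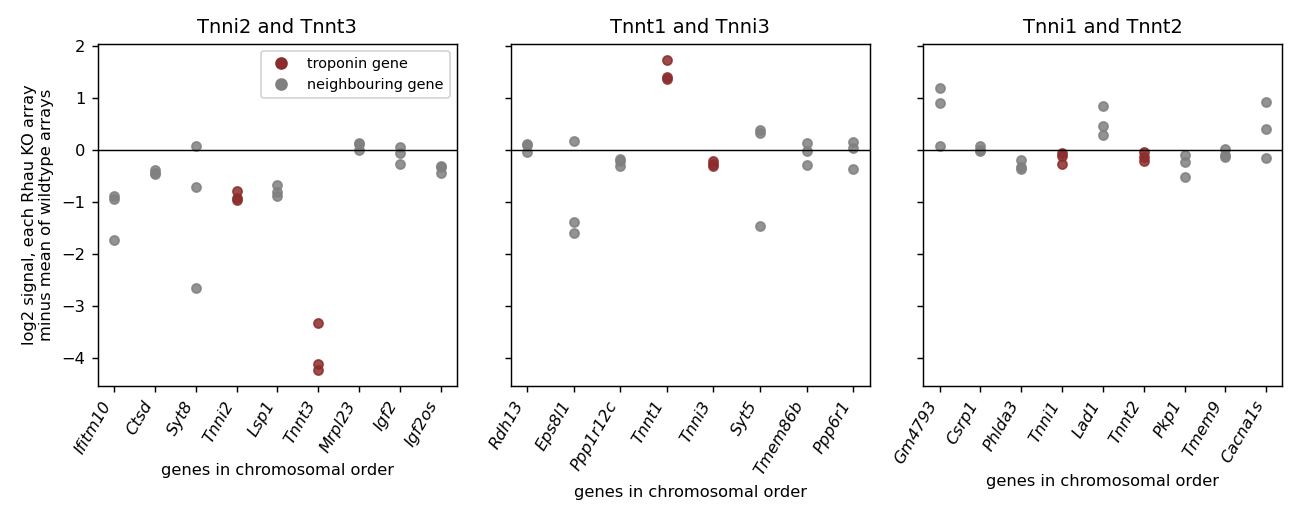
Log2 signal of each array labelled Rhau KO minus the mean of the wildtype arrays (vertical axis), 3 points per gene, for the linked troponin pairs (dark red) and their neighbours (grey) in chromosomal order. Lsp1, Ctsd and Ifitm10 lie below 0 on all 3 arrays beside Tnni2 and Tnnt3, whereas Tnnt1, at a mean of 1.50, lies above 0 on all 3; Eps8l1, Syt5, Gm4793, Pkp1 and Cacna1s are plotted although below the filter.

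The 5 genes whose profile over the 6 arrays lay closest to Tnnt3, by the root mean square distance of log2 differences from the wildtype mean, were Myom2 (1.20), which encodes an M-band protein of the sarcomere, Pde10a (1.43), a cyclic nucleotide phosphodiesterase, the claudin gene Cldn13 (1.44), Rfx2 (1.51) and 3110040M04Rik (1.57). A gene that does not differ at all would lie at 2.77. Their differences ran from -2.25 for Myom2 to -1.79 for 3110040M04Rik, which ranked 8 and 14 from the most negative of all probe sets fitted. The distance to Tnnt3 thus follows the size of the difference between labels. It does not show that these genes vary together within a label. Other probe sets gave -0.50 for Pde10a and 0.10 for Rfx2, both without a call.

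Other genes of the muscle filament and its control were taken from 5 lists of 90 genes, of which 79 were fitted. In limma's fit over all probe sets, 17 fell and 10 rose, 34.2% of those fitted against 16.5% of all genes, and 11 fell without replicate 1 labelled wildtype. With the Y-linked covariate 3 were called lower and 0 higher, and with eBayes without trend 10 and 5. These lists were chosen with earlier results of the data known. Their median difference was -0.09 against 0.01 for all genes. Counts for each list and for the cell type markers below stand beside 9.75% of all genes called lower and 6.77% called higher.

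Among 21 other thin filament genes 5 fell, 1 rose and 15 did not pass, with a median of -0.13. Acta1, which encodes skeletal alpha-actin, fell from 14.16 ± 0.03 to 13.03 ± 0.15 (-1.13, SE 0.07, limma adjusted p = 9.65e-06). Lmod3, which nucleates actin filaments, fell by 0.69, Cap2, an actin-monomer binding protein gene, by 0.44, and the filamin gene Flnc by 0.40. Of 15 thick filament and calcium genes 5 fell and 2 rose. Myom2 fell by 2.25 and the alpha myosin heavy chain gene Myh6 by 0.35, while the calcium pump inhibitor gene Pln rose by 0.46 and the titin cap gene Tcap by 0.48.

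Of 19 regulators of muscle genes 4 fell and 2 rose. The homeobox gene Nkx2-5 fell by 1.29 and Srf, which binds CArG boxes, by 0.42, while its coactivator gene Myocd rose by 0.76 and Prox1 by 0.46. The other Myocd probe set differed by 0.20, the other Srf probe set by -0.30 and those of Prox1 by 0.30 and 0.72, each without a call. Among 12 regulators of splicing, 4 rose in limma's fit and 8 did not pass: Rbm20, a regulator of titin splicing, by 0.56, the muscleblind gene Mbnl3 by 0.47, Ptbp2 by 0.38 and Celf2, whose family acts on troponin T exons, by 0.36. Over all genes 6.77% were called higher. These 4 calls were lost with the Y-linked covariate, at 0.44 for Rbm20, 0.43 for Mbnl3, 0.42 for Ptbp2 and 0.42 for Celf2. Other probe sets were called at 0.36 for Mbnl3, 0.58 for Ptbp2 and 0.42 and 0.35 for Celf2. Those at 0.20 for Mbnl3 and at 0.36 and 0.53 for Celf2 had no call. Of 12 kinases and phosphatases that act on troponin, Prkce (-0.60), Prkcd (-0.41) and the phosphatase subunit gene Ppp2r5a (-0.26) fell and Prkd1 (0.37) rose. Another Prkce probe set was called at -0.54. Those at -0.34 for Prkce, -0.27 for Prkcd and 0.29 for Prkd1 had no call. Limma's adjusted p over the genes named in these lists ran from 2.15e-06 for Nkx2-5 to 0.0481 for Ppp2r5a, whose call, like that of Prox1, was lost in 5 of the 6 fits without 1 array.

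Genes listed as markers of skeletal and smooth muscle were read on the same arrays. Heart muscle cells may express some of them too, and which cells gave their signal was not tested. Of 27 skeletal muscle markers 9 lay above the filter. Ckm, the muscle creatine kinase gene, fell from 10.85 ± 0.03 to 9.81 ± 0.41 and Myl1, a myosin light chain gene also used by the embryonic heart, from 13.82 ± 0.23 to 13.41 ± 0.07 (limma adjusted p = 0.00191 and 0.0177), and 7 did not pass. On a dimmer probe set Ckm was at 0.24, not past the threshold, and the Myl1 call was lost without replicate 1 or 3 labelled wildtype. The summed linear signal of the 27 ran from 20190 to 24729 in wildtype arrays and from 16915 to 18263 in Rhau KO arrays. Myl1 made up 58.3% to 65.0% of that sum on each array and Myl1 and Casq1 together 80.6% to 83.5%. Without them it ran from 3918 to 4184 in wildtype arrays and from 2853 to 3247 in Rhau KO arrays, with Ckm still in it. Ckm alone did not overlap between labels, and a sum without Ckm was not taken. The lower sum therefore does not show that the remaining markers fell as a group. The defining markers Myod1, Myog, Myf5, Myf6, Pax7 and Chrna1 all had means over the 6 arrays below the filter, and Myf5 was listed at 0 in replicates 1 and 2 labelled wildtype. The 7 markers above the filter that did not pass were Casq1 (-0.28), Mylpf (-0.32), Actn3 (-0.21), Myoz1 (-0.12), Atp2a1 (0.06), Myh3 (0.63) and Mybpc1 (0.76).

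Cardiomyocyte markers, 14 of 14 above the filter, summed to 311853 to 319886 in wildtype arrays and 281639 to 322043 in Rhau KO arrays. Myh6, Myl7 and Ryr2 fell and Pln rose, with the calls of Myl7 and Ryr2 lost without any 1 of the wildtype arrays. Most of these markers, and all that were called, are also in the filament and calcium lists above with the same probe sets, so these calls are not a separate read-out. Of 7 fitted smooth muscle markers 1, Cnn1, fell, by 0.36 (9.75% of all genes were called lower). The other 6 did not pass, at differences from -0.17 for Acta2 to 0.05 for Tagln. The 8 on the array summed to 38995 to 41526 against 34439 to 38335. Acta2, the brightest at 14.43 ± 0.05 and 14.26 ± 0.10, weighs most in that sum. Red cell markers had 8 of 10 lower (9.75% of all genes), with sums of 93782 to 100063 against 71572 to 89619, and Alas2, the enzyme that starts heme synthesis in red cells, at -1.39. Endothelial markers had 5 of 10 higher (6.77% of all genes), with sums of 12984 to 13928 against 14814 to 15913 and the receptor gene Kdr at 0.63. Fibroblast markers summed to 55660 to 57423 against 52694 to 57506, with 1 of 10 higher and 2 lower. The part of these shifts in the troponin and tropomyosin values was not tested.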

How the data were processed

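Total RNA of embryonic hearts was labelled with biotin per the labels' protocols, and each of the 6 samples had its own array. The deposited values are log2 signals per probe set; the authors used MAS5, per the submitters' processing notes, with no version named. The linear values have a 2% trimmed mean of 500 on every array, so each array had been scaled globally. Values were used as deposited, with no pseudocount, after 64 control probe sets were left out; 0 columns were unmatched. Values near 0 are not told apart from background.

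The platform annotation gave 1 gene for 34945 probe sets, several for 932 and none for 9160. Probe sets with a mean log2 signal in the lowest 40%, below 5.90, were not fitted, which left 27022. Differences were fitted with limma 3.58.1 in R 4.3.3 (lmFit, eBayes with trend), two-sided, with Benjamini-Hochberg adjustment over all 27022 and a threshold of 0.05. A gene in a list stands for its brightest probe set. Members, lists and the named genes (up to 4 called genes of largest change in a list) were chosen with earlier results of these data known. The number of arrays, 3 per group, limits precision. The procedure was tested on simulated arrays with independent noise for each probe set. They held no shared shift of arrays such as the sex-linked one, so that test does not bear on calls that depend on it. Python 3.11.15, pandas 2.3.3 and matplotlib 3.10.9 made the summaries and plots.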

Additional observations from a re-analysis of the deposited data

How the results depend on the processing

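Within the 3 mixed-signal arrays (1 wildtype against 2 Rhau KO, so the lone array is assumed to vary like the others), 501 probe sets were higher and 515 lower, against 1824 and 1858, with 4 listed genes higher and 3 lower and 3 member genes lower. With the Y-linked covariate the counts were 28 and 110, 0 and 3, and 1 member gene. Eif2s3y, Kdm5d and Uty turned to -2.07, -0.93 and -0.83, but the covariate is built from these 3 genes, so that turn is not a separate result. eBayes without trend gave 886 and 903, 5 and 10, and 3 member genes lower. With probe sets averaged per gene, 608 genes were higher, 824 lower and 11 listed genes lower; the brightest probe set per gene gave 1018 higher, both with fewer features tested, and median centring 1007 higher. Leaving out 1 array gave 1046 to 1283 higher and 1139 to 1574 lower probe sets, 8 to 9 listed genes higher and 11 to 17 lower, and 4 to 6 member genes lower; the drop passed 1.5 times without any 1 wildtype array and, for higher probe sets, without replicate 1 labelled Rhau KO. The difference in fast share was -4.60 percentage points for troponin T and -2.40 for troponin I, and -2.45 and -3.18 with all probe sets summed. Leaving out 1 array gave -4.80 to -4.47 and -2.96 to -2.04 percentage points. Leaving out the _x_ and _s_ probe sets could not alter either share, because no brightest probe set used for them is of these kinds. The cause of these shifts was not tested.

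Deviations of same-numbered arrays correlated at 0.00, 0.04 and 0.01, and 2 of 3 correlated best with their own number. With 3 arrays per group these values do not settle whether replicate numbers pair the arrays. With the replicate block 1684 probe sets were higher and 1760 lower, 6 member genes were lower and 1 higher, and 10 listed genes were higher and 16 lower. Saturation, detection calls and read-out of single transcripts limit these values.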
